A study of Mus musculus with 9 samples.

Results

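The livers described here had 48 h of induced c-Myc, and 3 of them were compared with 3 livers that received no doxycycline. The comparison was made across the genes that passed a count filter, which were 12651 of the 21703 rows of the deposited table, and it used 6 of the 9 livers of the study. Reads of total RNA were counted per gene. All mice were of strain C57BL/6J, were 4 weeks old and carried R26-M2-rtTA, a doxycycline-dependent activator placed at the Rosa26 locus, which is active in many tissues. The c-Myc livers carried Col-TetOP-c-Myc-ires-mCherry as well, in which doxycycline switches on c-Myc together with a red fluorescent reporter, and were taken 48 h after 0.2 ml of doxycycline at 2.0 mg/ml was given into the abdomen. The Mycl livers, a second set of 3, carried Col-TetOP-Mycl-ires-mCherry and had the same treatment, so that they differ from the c-Myc livers in the transgene and in the line. The no dox livers carried the same Mycl construct and were not treated. Mice with doxycycline but no transgene, or of the c-Myc line without doxycycline, were not analysed here, so the effects of c-Myc, of doxycycline and of the line on c-Myc minus no dox cannot be told apart. The labels name separate samples and not separate animals, so the p-values measure the spread between these samples.

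c-Myc is a transcription factor that pairs with Max and binds E-box sequences, of which CACGTG is the best known. It is known for driving cell growth by raising ribosome production, nucleotide synthesis and entry into the cell cycle, and for lowering genes of differentiated cells. The adult liver is mostly made of hepatocytes that rarely divide and that make plasma proteins, bile acids and glucose, break down amino acids and fatty acids, and convert foreign compounds. The mice here were 4 weeks old, and how far their livers differ from adult liver was not tested. Hepatocyte markers were abundant in all livers: the 14 in the list summed to between 93060 and 138600 counts per 1e+06 in c-Myc livers and between 172000 and 193000 in no dox livers. In bulk tissue, fewer cells of a type and less RNA per cell cannot be told apart. Ddx3y, a gene of the Y chromosome, was counted between 889 and 2115 times in all 9 libraries.

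The labels were checked first. Values in counts per 1e+06 (CPM) are scaled for library composition by TMM and are listed for replicates 1, 2 and 3 in that order. Myc stood at 214, 269.8 and 81.8 CPM in c-Myc livers, against 4.05, 7.02 and 12.7 CPM in no dox livers. The reporter IRES-mCherry stood at 221, 282 and 76.4 CPM in c-Myc livers, against 1.09, 0.316 and 0.318 CPM in no dox livers. In both, the groups were far apart, and replicate 3 had the lowest level of the c-Myc livers and replicate 2 the highest. The counts cannot separate transgene reads from those of the resident Myc gene. Mycl itself stood at 5.7, 7.05 and 6.59 CPM in c-Myc livers, against 10.8, 11.6 and 11.5 CPM in no dox livers, and Max at 19.4, 25.8 and 13.8 CPM in c-Myc livers, against 12.4, 12.9 and 13.8 CPM in no dox livers; neither passed the test, with -0.81 and 0.60 as log2 fold changes (SE 0.44 and 0.21; edgeR adjusted p = 0.225 and 0.0675).

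Of 23 members of the wider MYC network, 7 were higher and none lower at an adjusted p under 0.05, beside 11.8% and 8.88% of all tested genes, and the 7 include the transgene itself. Mxd3, which pairs with Max and represses, stood at 1.14, 1.72 and 1.53 CPM in c-Myc livers, against 0.328, 0.253 and 0.0796 CPM in no dox livers (log2 fold change 2.62 with SE 0.52, edgeR adjusted p = 0.00764). Ruvbl1 and Ruvbl2, helicases that bind Myc, stood at 13.5, 19.2 and 11.4 CPM and 26.5, 37.8 and 23.8 CPM in c-Myc livers, against 8.1, 8.03 and 7.64 CPM and 10.2, 11.4 and 11.3 CPM in no dox livers, with log2 fold changes of 0.89 and 1.42 (edgeR adjusted p = 0.0103 and 0.000899). The 2 were higher in every c-Myc liver than in every no dox liver, as were 22.6% of all tested genes. Without Mycl replicate 1, 2 members were lower.

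Uhrf1, which brings the maintenance methyltransferase to newly copied DNA, stood at 57.7, 93.7 and 31.9 CPM in c-Myc livers, against 1.31, 2.72 and 1.43 CPM in no dox livers. Npm1 (chromosome 11, 33152287 to 33163206, GRCm38), an abundant nucleolar protein, stood at 324, 415 and 246 CPM in c-Myc livers, against 70.6, 68.9 and 69 CPM in no dox livers. The groups did not overlap for either gene, and the log2 fold changes were 5.06 for Uhrf1 (SE 0.50, edgeR adjusted p = 0.000373) and 2.24 for Npm1 (SE 0.24, edgeR adjusted p = 0.000545). The order of the c-Myc livers in both genes was that of Myc, with replicate 2 highest and replicate 3 lowest.

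**Figure D1:**
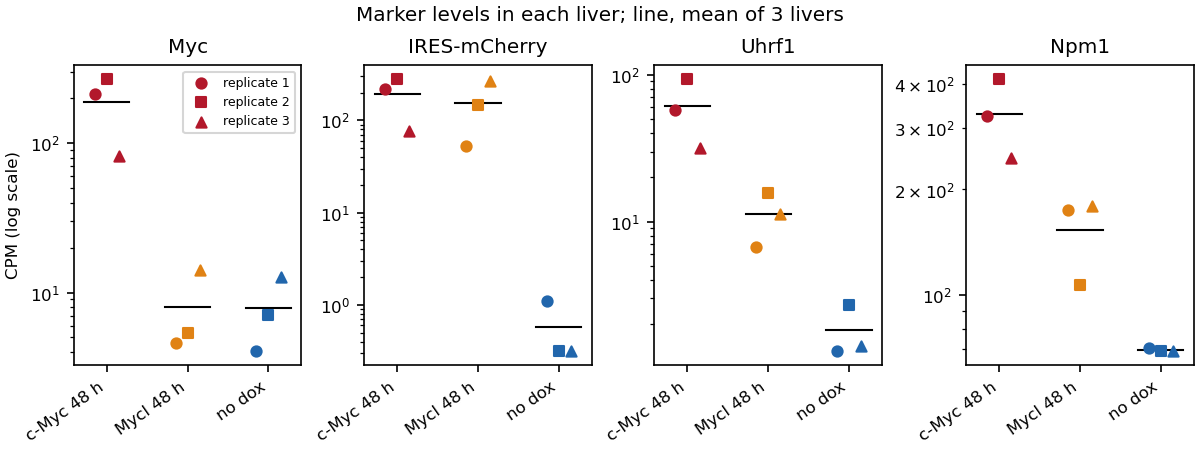
Levels of Myc, the reporter IRES-mCherry, Uhrf1 and Npm1 in CPM on a log axis, 1 point per liver, with c-Myc 48 h, Mycl 48 h and no dox from left to right and a line at the mean of 3 livers. All c-Myc livers lie above all no dox livers in each panel, and replicate 3 is the lowest c-Myc liver in each.

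Across all tested genes, 1490 were higher and 1124 lower in c-Myc livers at an adjusted p under 0.05, which is 11.8% and 8.88% of the 12651 genes. Counts of list members below are to be read beside these shares. The groups did not overlap in 22.6% of tested genes with c-Myc livers higher and in 28.1% with c-Myc livers lower. More of the large changes were rises: 941 genes rose and 359 fell by more than 2-fold, 398 rose and 68 fell by more than 4-fold, and 66 rose and 13 fell by more than 16-fold. The genes that rose had a median of 5.57 CPM in no dox livers and those that fell a median of 54.2 CPM, against 16.9 CPM over all tested genes. Together the genes that rose took 6.76%, 8.7% and 5.16% of the counts in c-Myc livers, against 2.56%, 2.39% and 2.45% in no dox livers, and the genes that fell took 11.6%, 10.9% and 13.9% in c-Myc livers, against 19.5%, 19.2% and 18.8% in no dox livers. Scaled by library totals alone, 3181 genes were higher and 337 lower, so that 90.4% of the calls were rises, against 57.0% with TMM; the median log2 fold change of all genes was then 0.31, against -0.05 with TMM. Changes are given relative to the TMM scale. Where a group held few reads of a gene, the size of its fold is loosely set.

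Which genes passed depended on single livers. Without c-Myc replicate 2, 897 were higher and 300 lower, and without c-Myc replicate 1, 1070 and 451. The counts were 975 and 383 without no dox replicate 1, 910 and 310 without replicate 2, and 941 and 334 without replicate 3. Without Mycl replicate 1, 2402 and 1844 genes passed. A Mycl liver enters this comparison through the filter, the scaling and the shared spread. Without Mycl replicate 1 the median log2 fold change of all genes was -0.006, against -0.054 over all livers. In that library the median transcript under 800 nt stood 1.34 above the no dox mean on the log2(CPM + 0.5) scale. No gene called over all livers changed sign when a library was left out. Named genes written of below as having risen or fallen also passed with each library left out in turn, unless a liver is named beside them.

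**Figure D2:**
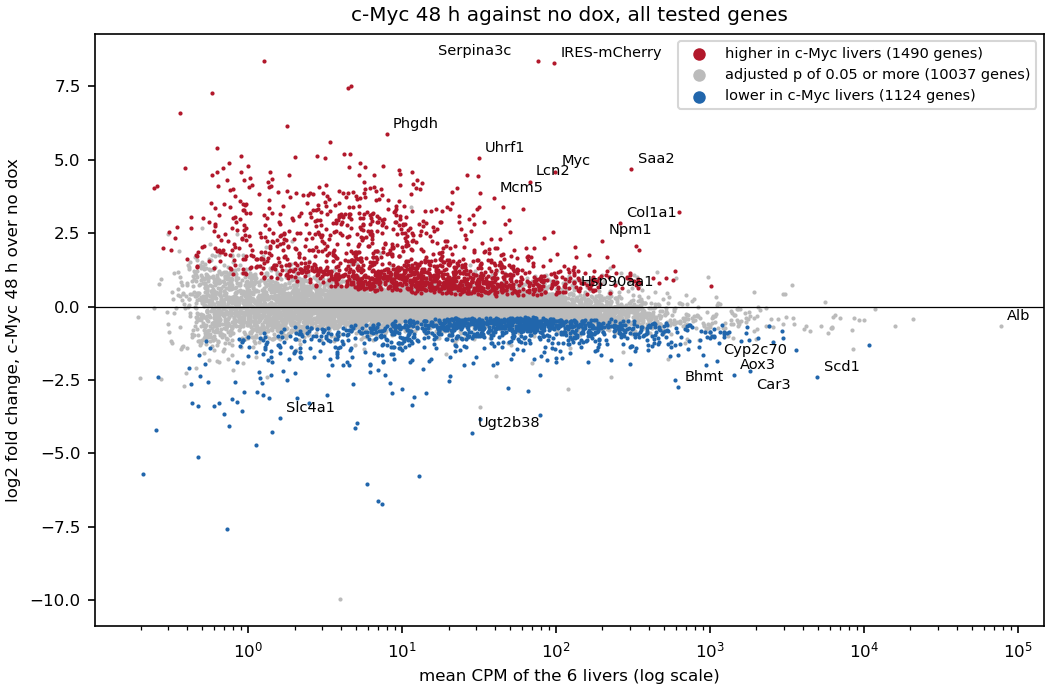
Each tested gene by its mean CPM over the 6 livers (log axis) and its log2 fold change, c-Myc 48 h over no dox, with genes higher in c-Myc livers in red, those lower in blue and the rest in grey. Beyond a 4-fold change there are 398 rises and 68 falls, and Serpina3c and the reporter lie near the top while Slc4a1 and Ugt2b38 lie low.

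Ribosome assembly genes rose over nearly the whole list. Of 45 factors that assemble ribosomes in the nucleolus, 40 rose and none fell, against 11.8% of all tested genes higher, with a median log2 fold change of 1.20. Nhp2, which belongs to the particle that converts uridines in ribosomal RNA, stood at 64.9, 81 and 47.9 CPM in c-Myc livers, against 18.6, 15 and 14.8 CPM in no dox livers (log2 fold change 2.00 with SE 0.29, edgeR adjusted p = 0.00147). Ncl, a nucleolar protein of ribosomal RNA maturation, stood at 532, 709 and 345 CPM in c-Myc livers, against 125, 133 and 124 CPM in no dox livers (log2 fold change 2.05 with SE 0.28, edgeR adjusted p = 0.00124). In both genes every c-Myc liver was more than 2-fold above every no dox liver. The polymerases that make ribosomal and transfer RNA changed in part: 10 of 34 subunits and factors of RNA polymerase I and III rose and none fell. Polr1b, the second largest subunit of polymerase I, stood at 56.4, 75.9 and 30.2 CPM in c-Myc livers, against 19.8, 16.1 and 18.9 CPM in no dox livers (log2 fold change 1.57 with SE 0.32, edgeR adjusted p = 0.00781). Polr3g, a polymerase III subunit, stood at 19, 23.4 and 11.8 CPM in c-Myc livers, against 6.62, 6.83 and 7.64 CPM in no dox livers (log2 fold change 1.37 with SE 0.24, edgeR adjusted p = 0.00443). The count of 10 was 4 without c-Myc replicate 2 and 5 without no dox replicate 2 or 3.

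Factors that carry cargo through the nuclear pore rose in part. Of 45 nucleoporins and karyopherins, 18 rose and none fell, with a median of 0.66. Ipo4, an importin for histones and ribosomal proteins, stood at 172, 183 and 115 CPM in c-Myc livers, against 45.3, 46.7 and 45.7 CPM in no dox livers (log2 fold change 1.77 with SE 0.24, edgeR adjusted p = 0.00112). Its lowest c-Myc liver was more than 2-fold above its highest no dox liver. Ranbp1, a partner of the GTPase Ran, stood at 45.6, 58.4 and 35.3 CPM in c-Myc livers, against 19.3, 19.2 and 17.4 CPM in no dox livers (log2 fold change 1.32 with SE 0.19, edgeR adjusted p = 0.00139). Nup62 and Nup85, structural proteins of the pore, had log2 fold changes of 1.22 (SE 0.19) and 1.26 (SE 0.19). The count was 29 without Mycl replicate 1.

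Among splicing factors, 14 of 50 rose and none fell, with a median of 0.52. The members with the smallest adjusted p were arginine methyltransferases and the partner of Prmt5. Prmt1, the main arginine methyltransferase, stood at 29.9, 42.4 and 23.2 CPM in c-Myc livers, against 12.1, 9.61 and 11 CPM in no dox livers (log2 fold change 1.54 with SE 0.23, edgeR adjusted p = 0.00189). Prmt5 stood at 26.3, 37.5 and 23.6 CPM in c-Myc livers, against 14, 12.8 and 15.3 CPM in no dox livers (log2 fold change 1.06 with SE 0.20, edgeR adjusted p = 0.00613). Wdr77, which acts with Prmt5, stood at 59, 74.5 and 38.2 CPM in c-Myc livers, against 24.4, 24.7 and 24.1 CPM in no dox livers (log2 fold change 1.23 with SE 0.21, edgeR adjusted p = 0.00325). The groups did not overlap in these 3 genes, as in 22.6% of all tested genes with c-Myc livers higher. The splicing count moved with single libraries: it was 7 and 5 without c-Myc replicates 1 and 2, 23 without c-Myc replicate 3, 5 without no dox replicate 1, 2 or 3 and 35 without Mycl replicate 1.

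Genes of the translation and folding machinery rose by smaller steps. Of 22 aminoacyl-tRNA synthetases and partners, which load amino acids onto transfer RNA, 9 rose. Vars, which loads valine, stood apart with 220.0, 264 and 154 CPM in c-Myc livers, against 44.7, 59 and 51.9 CPM in no dox livers (log2 fold change 2.04 with SE 0.37, edgeR adjusted p = 0.00507). The other 8 that passed had log2 fold changes between 0.57 and 1.21, so the rise of Vars was the largest of that list. All 8 subunits of the CCT chaperonin, the ring that folds actin and tubulin, were higher, with log2 fold changes between 0.44 and 0.98. Cct5 stood at 251, 282 and 220.4 CPM in c-Myc livers, against 136, 117 and 129 CPM in no dox livers (log2 fold change 0.98 with SE 0.18, edgeR adjusted p = 0.00492). Without c-Myc replicate 2, or without no dox replicate 2 or 3, 5 CCT subunits passed; the synthetases were 5 without c-Myc replicate 1 or 2 or no dox replicate 3, and 14 without Mycl replicate 1.

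Few or no members of other large assemblies passed. Of 31 proteasome subunits, 0 passed the edgeR test in either direction, with a median of -0.14 and log2 fold changes between -0.31 and 0.52. Of 78 mitochondrial ribosomal proteins, 4 were higher and 0 lower, a share of 5.13% beside 11.8% of all genes, with a median of 0.11. The median of the proteasome list is positive when libraries are scaled by their totals (0.22), with 1 subunit higher, as without Mycl replicate 1. Likewise 17 mitochondrial ribosomal proteins were higher then and 18 without Mycl replicate 1. The count of 4 was 2 without c-Myc replicate 1 or 2 or no dox replicate 2 or 3. Mrpl42 passed, at 43.7, 48.2 and 44.8 CPM in c-Myc livers, against 23.4, 19.2 and 22.8 CPM in no dox livers (log2 fold change 1.06 with SE 0.21, edgeR adjusted p = 0.00788). For the proteasome, DESeq2 called 0 higher and 0 lower, and 1 subunit had an unadjusted p under 0.05.

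**Figure D3:**
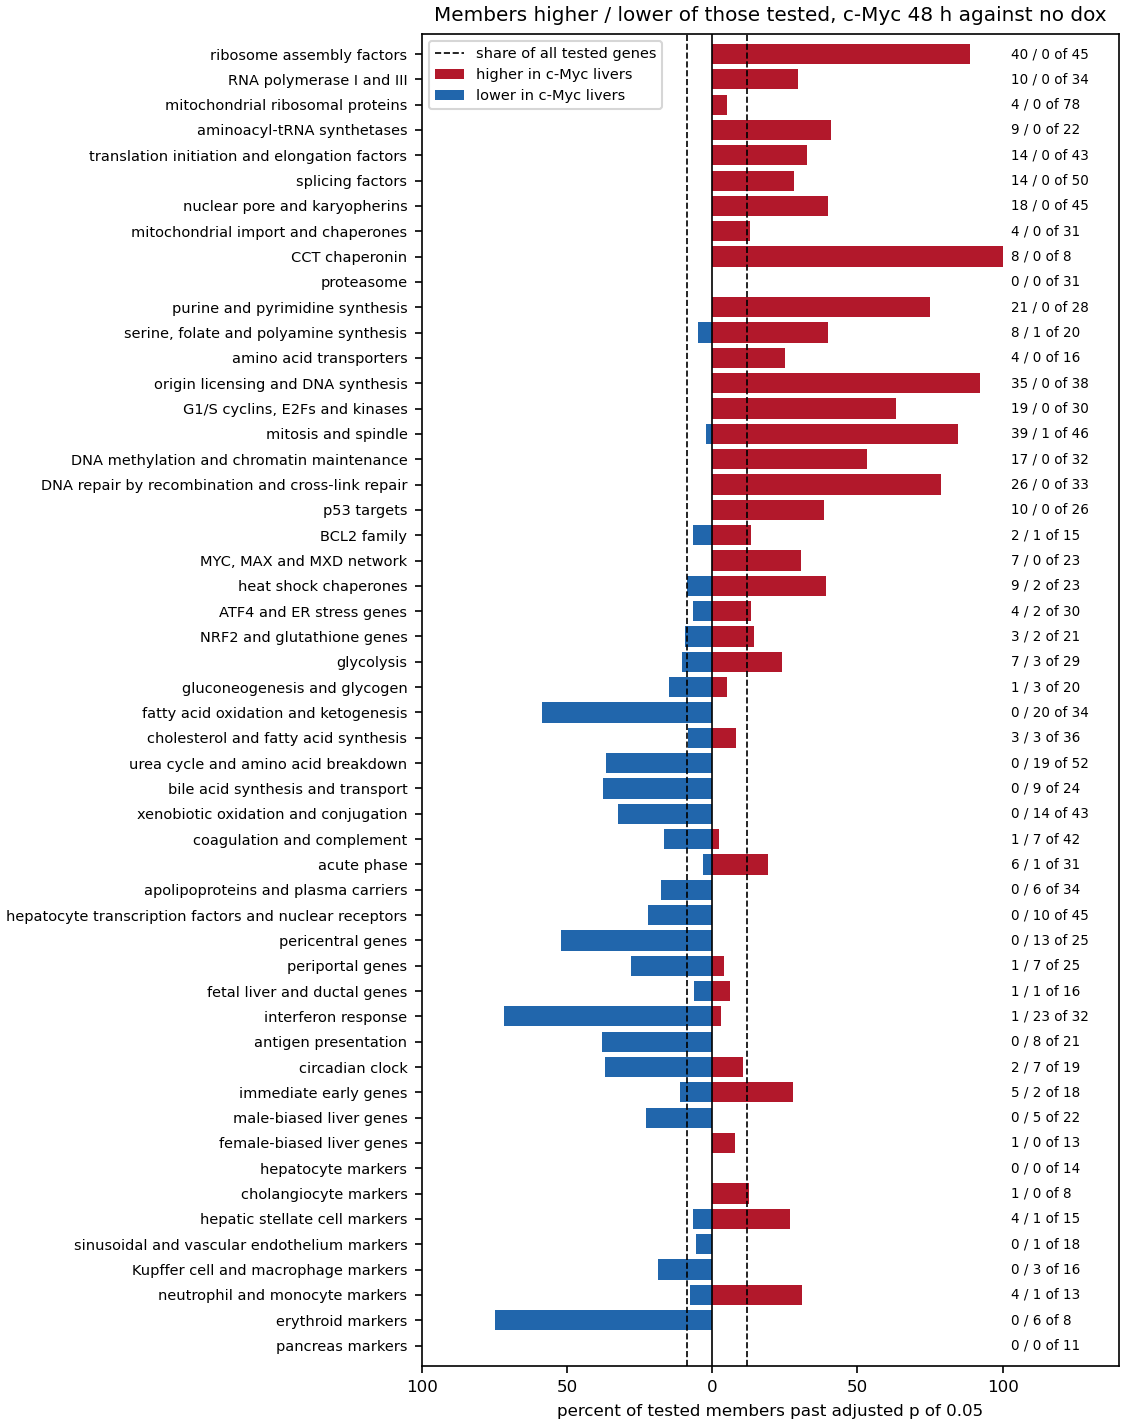
Share of the tested members of each gene list that were higher (red, right) or lower (blue, left) in c-Myc 48 h than in no dox livers at an adjusted p under 0.05, for lists with 8 or more tested members, with the numbers at the right and dashed lines at the shares over all tested genes. The CCT, DNA synthesis, ribosome assembly and mitosis lists reach 80% or more to the right, while fatty acid oxidation, pericentral, interferon and erythroid lists reach over 50% to the left.

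Genes of nucleotide synthesis rose along both the purine and the pyrimidine route. Of 28 enzymes, 21 rose and none fell, with a median of 1.06. Impdh2, which commits purines to guanine nucleotides, stood at 66.9, 87.1 and 55.8 CPM in c-Myc livers, against 22.4, 19.4 and 18.8 CPM in no dox livers (log2 fold change 1.79 with SE 0.17, edgeR adjusted p = 0.000373). Impdh1, its paralog, stood at 14.4, 24.7 and 13.4 CPM in c-Myc livers, against 3.45, 4.3 and 3.42 CPM in no dox livers (log2 fold change 2.23 with SE 0.27, edgeR adjusted p = 0.00079). Ctps, which makes CTP from UTP, stood at 31, 41.2 and 15.1 CPM in c-Myc livers, against 4.49, 4.68 and 5.01 CPM in no dox livers (log2 fold change 2.63 with SE 0.34, edgeR adjusted p = 0.000914). All 3 had the same order of c-Myc livers as Myc. Rrm2, the regulated subunit of the reductase that makes deoxynucleotides, stood at 44.3, 88.9 and 39.8 CPM in c-Myc livers, against 5.8, 5.19 and 5.41 CPM in no dox livers (log2 fold change 3.40 with SE 0.31, edgeR adjusted p = 0.000358).

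Genes for the supply of serine, folate units and polyamines changed at a few steps, by large folds. Phgdh (chromosome 3, 98313170 to 98339990, GRCm38), the first enzyme of serine synthesis, had 197, 552 and 110 counts in c-Myc livers, against 4, 1 and 7 counts in no dox livers, which is 10.7, 28.8 and 7.32 CPM in c-Myc livers, against 0.219, 0.0632 and 0.557 CPM in no dox livers (log2 fold change 5.87 with SE 0.75, edgeR adjusted p = 0.000904). Since no dox livers held few reads of it, the size of that fold is loosely set. Psat1, the next enzyme of the route, stood at 21.1, 42.2 and 12.7 CPM in c-Myc livers, against 1.48, 1.26 and 1.35 CPM in no dox livers (log2 fold change 4.21 with SE 0.48, edgeR adjusted p = 0.000583). Mthfd1l, which makes formate in mitochondria, stood at 22.2, 34.5 and 13.2 CPM in c-Myc livers, against 1.31, 1.39 and 1.59 CPM in no dox livers (log2 fold change 4.03 with SE 0.41, edgeR adjusted p = 0.00042). Srm, which makes spermidine, stood at 83.5, 115 and 44.3 CPM in c-Myc livers, against 13, 12.3 and 9.15 CPM in no dox livers (log2 fold change 2.82 with SE 0.31, edgeR adjusted p = 0.000575). In total 8 of the 20 enzymes were higher, while Psph, the last enzyme of serine synthesis, and Shmt2, which passes a carbon from serine to folate, did not pass, with log2 fold changes of 0.67 and 0.11. Aldh1l1, a folate dehydrogenase of hepatocytes, was lower at -0.88 on the log2 scale (edgeR adjusted p = 0.0455) over all livers but did not pass without c-Myc replicate 1 or 2, without no dox replicate 1, 2 or 3, or without Mycl replicate 2 or 3.

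Of 16 amino acid transporters, 4 rose and none fell, though 2 were lower without Mycl replicate 1. Slc7a6 and Slc7a1, carriers of cationic amino acids, stood at 3.21, 6.01 and 2.33 CPM and 9.45, 15.2 and 6.05 CPM in c-Myc livers, against 0.602, 0.316 and 0.398 CPM and 1.42, 1.96 and 1.75 CPM in no dox livers, with log2 fold changes of 3.09 and 2.59 (edgeR adjusted p = 0.00134 and 0.00214). Slc7a5, an importer of large neutral amino acids, stood at 12, 19 and 8.65 CPM in c-Myc livers, against 3.45, 3.29 and 4.77 CPM in no dox livers (log2 fold change 1.79 with SE 0.31, edgeR adjusted p = 0.00407). Slc1a5, which carries glutamine, stood at 3.48, 3.71 and 2.46 CPM in c-Myc livers, against 0.493, 1.01 and 0.955 CPM in no dox livers (log2 fold change 1.99 with SE 0.33, edgeR adjusted p = 0.00323). These are low levels, and the other 12 did not pass, among them Slc38a3 of hepatocytes, with a log2 fold change of -0.85.

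Some of the growth and cycle genes that rose hold CACGTG just before the start of the gene. They are shown because this sequence is the E-box that Myc and Max are known to bind, and the promoter windows are those of RefSeq on GRCm38.p6, 250 bases before to 50 after each start. The lines below give, 5′ to 3′ on the strand of the gene, the bases before the start around each copy, with CACGTG in capitals; the motif is its own reverse complement, so both strands are searched at once. The first 5 were taken from growth and cycle genes that rose, hold the motif and are named by the rule given in the methods. They are those with the smallest adjusted p, with the genes of a chromosome left out of the search. Cdk4, chosen after its sequence was seen, holds 4 copies. Of them Cd3eap, a subunit of RNA polymerase I, stood at 10.9, 13.6 and 5.85 CPM in c-Myc livers, against 3.34, 2.97 and 2.23 CPM in no dox livers (log2 fold change 1.82 with SE 0.33, edgeR adjusted p = 0.00473).
Chaf1a, chr17:56040292-56040347, plus strand: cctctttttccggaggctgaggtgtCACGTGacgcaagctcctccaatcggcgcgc
Impdh2, chr9:108560301-108560356, plus strand: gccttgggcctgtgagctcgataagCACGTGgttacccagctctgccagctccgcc
Espl1, chr15:102296146-102296201, plus strand: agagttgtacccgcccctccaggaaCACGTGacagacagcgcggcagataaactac
Prmt1, chr7:44986571-44986626, minus strand: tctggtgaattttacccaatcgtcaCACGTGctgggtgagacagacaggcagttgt
Cd3eap, chr7:19359671-19359726, minus strand: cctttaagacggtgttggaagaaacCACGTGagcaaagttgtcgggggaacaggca
Cdk4, chr10:127063338-127063534, plus strand: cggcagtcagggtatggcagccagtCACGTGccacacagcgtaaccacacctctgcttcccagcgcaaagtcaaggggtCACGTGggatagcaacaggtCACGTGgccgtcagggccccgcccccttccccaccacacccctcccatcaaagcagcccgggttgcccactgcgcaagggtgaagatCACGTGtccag
The copy begins 99 bases before the start in Chaf1a, 110 in Impdh2, 122 in Espl1, 181 in Prmt1 and 218 in Cd3eap, and the 4 copies of Cdk4 begin between 172 and 11 bases before it. In the whole table, 2187 of 27025 genes hold the motif in a window, which is 8.09%, and of the 9988 tested genes with a window 11.6% hold it. Windows were found for 39 of 45 ribosome assembly factors, of which 8 hold it (20.5%), for 37 of 45 nuclear pore genes, of which 8 hold it (21.6%), and for 24 of 28 nucleotide synthesis genes, of which 6 hold it (25%). With only the 250 bases before the start, the ribosome assembly share is 5.13%, the nuclear pore share 18.9% and the nucleotide synthesis share 25%, beside 6.86% of all genes in the table and 9.8% of tested genes. Of mitosis and spindle genes, 3 of the 38 with a window hold it (7.89%). Windows were found for 24 of 33 recombination and cross-link repair genes, of which 0 hold it. A match describes the letters and is not a bound site. Only 79.0% of tested genes and 72.7% of the repair genes had a window, under the 80% needed, so their shares are incomplete and those among all genes that rose or fell are not given.

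Genes of cell cycle entry and DNA copying rose together. Of 38 genes of origin licensing and DNA synthesis, 35 rose and none fell, with a median of 2.18, and of 30 tested regulators of the G1/S step, 19 rose and none fell. Cdk4, a kinase that starts the cycle, stood at 52, 68.6 and 45.6 CPM in c-Myc livers, against 27.8, 24 and 24.1 CPM in no dox livers (log2 fold change 1.13 with SE 0.21, edgeR adjusted p = 0.00558). E2f1, a factor that switches on replication genes, stood at 21.2, 24 and 13.7 CPM in c-Myc livers, against 2.9, 4.36 and 3.1 CPM in no dox livers (log2 fold change 2.51 with SE 0.28, edgeR adjusted p = 0.000575). Ccne1, the cyclin that drives entry into DNA synthesis, stood at 11.1, 15.4 and 7.38 CPM in c-Myc livers, against 1.26, 1.96 and 1.27 CPM in no dox livers (log2 fold change 2.91 with SE 0.34, edgeR adjusted p = 0.000631). For each of these, all c-Myc livers exceeded all no dox livers, as for 22.6% of all tested genes. The D-type cyclin Ccnd1 and the kinase Cdk6 did not pass, with log2 fold changes of 0.24 and 0.41. Cdc6, which loads the replicative helicase, stood at 12.2, 14 and 4.79 CPM in c-Myc livers, against 0.493, 0.127 and 0.398 CPM in no dox livers (log2 fold change 4.90 with SE 0.53, edgeR adjusted p = 0.000534). The helicase subunit Mcm5 stood at 67.5, 98.3 and 53 CPM in c-Myc livers, against 4.38, 7.97 and 4.69 CPM in no dox livers (log2 fold change 3.68 with SE 0.33, edgeR adjusted p = 0.000335).

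Of 32 genes of DNA methylation and chromatin maintenance, 17 rose and none fell, though 2 were lower without Mycl replicate 1. Those that rose include genes that copy methylation and histones onto new DNA. Hells, a remodeller needed for DNA methylation, stood at 42.2, 62.7 and 22.6 CPM in c-Myc livers, against 2.19, 3.29 and 2.39 CPM in no dox livers (log2 fold change 4.02 with SE 0.39, edgeR adjusted p = 0.000373). Chaf1a, which deposits histones behind the fork, stood at 27.3, 38.6 and 17.8 CPM in c-Myc livers, against 2.46, 3.23 and 3.1 CPM in no dox livers (log2 fold change 3.26 with SE 0.32, edgeR adjusted p = 0.000373). The methyltransferase Dnmt1 rose by 1.74 on the log2 scale, while Dnmt3a and Dnmt3b, which methylate DNA anew, and the demethylating Tet1 did not pass, with log2 fold changes of -0.34, 0.41 and 0.52. The linker histone genes Hist1h1a and Hist1h1b, whose reads near-identical copies may share, stood at 28.5, 55 and 34.8 CPM and 28.2, 57.7 and 30.7 CPM in c-Myc livers, against 1.92, 4.3 and 1.75 CPM and 3.72, 3.98 and 2.23 CPM in no dox livers.

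Repair genes of the recombination and cross-link routes also rose widely. Of 33 tested, 26 rose and none fell, with a median of 2.12. Chek1 (chromosome 9, 36708482 to 36727065, GRCm38), the kinase that slows the cycle when forks stall, stood at 13.1, 17 and 8.25 CPM in c-Myc livers, against 0.821, 1.08 and 0.557 CPM in no dox livers (log2 fold change 3.94 with SE 0.32, edgeR adjusted p = 0.000311). Rad54l, a motor protein of recombination, stood at 6.85, 9.87 and 7.45 CPM in c-Myc livers, against 0.547, 0.696 and 0.557 CPM in no dox livers (log2 fold change 3.73 with SE 0.32, edgeR adjusted p = 0.000311). Fancd2, a Fanconi protein placed at cross-links, stood at 8.91, 13.3 and 6.52 CPM in c-Myc livers, against 0.93, 0.949 and 0.796 CPM in no dox livers (log2 fold change 3.41 with SE 0.31, edgeR adjusted p = 0.000322). In each, the lowest c-Myc liver was more than 5-fold above the highest no dox liver. The nuclease partners Rad50 and Nbn did not pass, with log2 fold changes of 0.40 and 0.21, although Mre11a of the same complex was higher at 1.03.

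Mitotic genes followed, with 39 of 46 higher and a median of 2.77. Espl1, the protease that separates sister chromatids, stood at 9.78, 19.5 and 8.52 CPM in c-Myc livers, against 0.328, 0.885 and 0.477 CPM in no dox livers (log2 fold change 4.48 with SE 0.43, edgeR adjusted p = 0.000373). Foxm1, a factor for mitotic genes, stood at 9.56, 18.1 and 9.31 CPM in c-Myc livers, against 1.59, 1.77 and 0.955 CPM in no dox livers (log2 fold change 3.08 with SE 0.34, edgeR adjusted p = 0.000548). Ncaph of condensin stood at 15.7, 22.4 and 11.2 CPM in c-Myc livers, against 1.53, 2.78 and 1.27 CPM in no dox livers (log2 fold change 3.13 with SE 0.34, edgeR adjusted p = 0.000545). The single member lower was Pttg1, the inhibitor of Espl1, at -0.79 on the log2 scale (edgeR adjusted p = 0.0217), and it did not pass without c-Myc replicate 1 or 2 or no dox replicate 2 or 3. Replicate 2 had the highest level of the c-Myc livers in Espl1, Foxm1 and Ncaph.

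**Figure D4:**
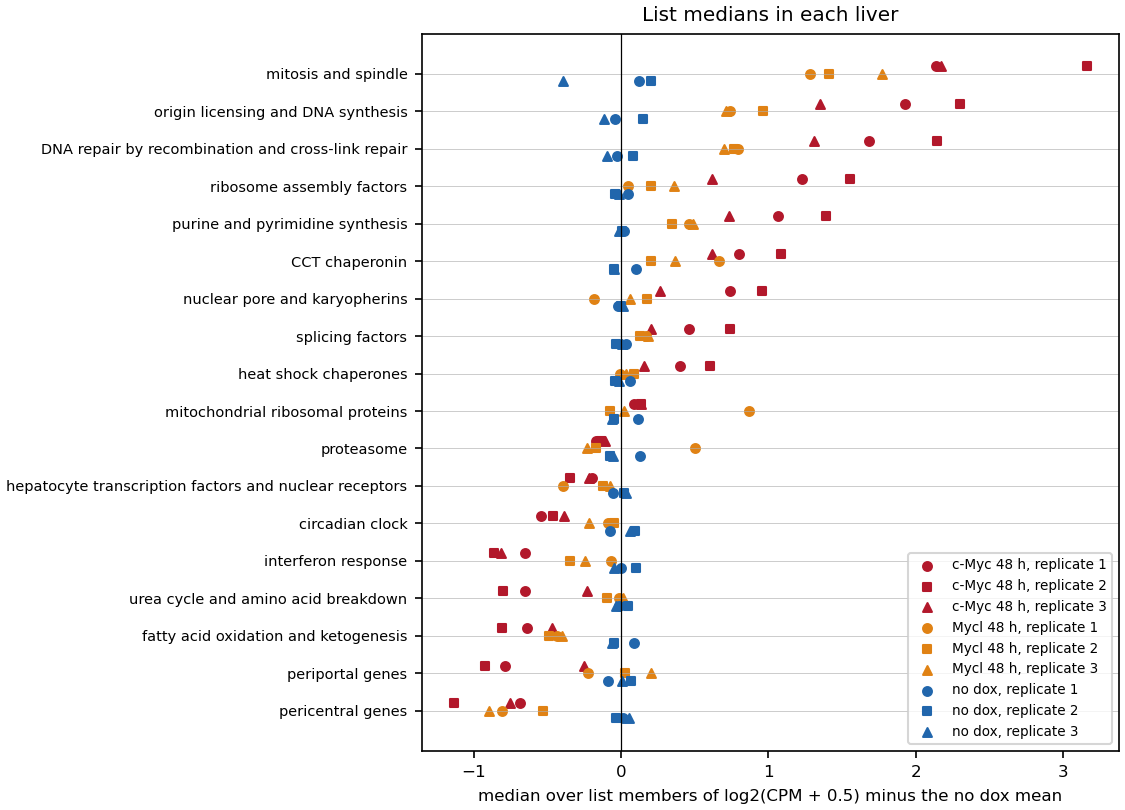
Median over each list's members of log2(CPM + 0.5) minus the no dox mean, 1 point per liver, for c-Myc 48 h (red), Mycl 48 h (orange) and no dox (blue), with a marker shape per replicate. In ribosome assembly the c-Myc livers stand at 1.23, 1.56 and 0.62 in replicates 1, 2 and 3, and replicate 2 is the farthest c-Myc liver from 0 in 16 of the 18 lists plotted, all but the proteasome and the circadian clock.

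The distance from no dox differed among the c-Myc livers in an order shared by most lists. The median of ribosome assembly factors stood 1.23, 1.56 and 0.62 above the no dox mean in c-Myc replicates 1, 2 and 3, and that of nucleotide synthesis 1.07, 1.39 and 0.73. For nuclear pore genes the medians were 0.74, 0.96 and 0.26, and for fatty acid oxidation -0.64, -0.81 and -0.47. Replicate 3, with the lowest Myc and reporter, was the nearest to no dox in these 4. In the mitosis list, replicates 1 and 3 were nearly level, at 2.14 and 2.17, with replicate 2 at 3.16. With 3 livers, no correlation with the transgene level was computed.

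Of 26 p53 targets, 10 rose and none fell. Cdkn1a, the inhibitor of cyclin-dependent kinases, stood at 31.4, 67.3 and 26.1 CPM in c-Myc livers, against 4.05, 5.44 and 5.41 CPM in no dox livers (log2 fold change 3.07 with SE 0.38, edgeR adjusted p = 0.000811). Eda2r, a death receptor of the TNF family, stood at 10.3, 33 and 11.6 CPM in c-Myc livers, against 1.15, 1.08 and 0.875 CPM in no dox livers (log2 fold change 4.12 with SE 0.51, edgeR adjusted p = 0.000794). Phlda3, an inhibitor of Akt, stood at 4.89, 11.9 and 5.26 CPM in c-Myc livers, against 0.602, 1.14 and 0.955 CPM in no dox livers (log2 fold change 3.04 with SE 0.43, edgeR adjusted p = 0.00136). Mdm2, which degrades p53, and the targets Ccng1 and Gdf15 did not pass, with log2 fold changes of 0.44, 0.50 and 0.68. In the BCL2 family, where some members promote and others block cell death, Bax rose to 25.6, 30.8 and 20.7 CPM in c-Myc livers, against 11.1, 8.54 and 9.55 CPM in no dox livers (log2 fold change 1.40 with SE 0.22, edgeR adjusted p = 0.00213). Bbc3, which also promotes death, stood at 13.5, 12.4 and 10.6 CPM in c-Myc livers, against 7.28, 7.53 and 6.6 CPM in no dox livers (log2 fold change 0.77 with SE 0.15, edgeR adjusted p = 0.00661). Bmf, another death-promoting member, fell to 4.24, 3.92 and 6.32 CPM in c-Myc livers, against 16.3, 21.4 and 15.1 CPM in no dox livers (log2 fold change -1.87 with SE 0.29, edgeR adjusted p = 0.00214). The protective Bcl2 and Mcl1 did not pass, with log2 fold changes of -0.53 and -0.08. Over 15 members 2 were higher and 1 lower, shares near the 11.8% and 8.88% of all tested genes; without Mycl replicate 1 they were 4 and 3, and 2 were lower without c-Myc replicate 3.

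Of 23 heat shock chaperones, 9 were higher, while 2 were lower, a share near the 8.88% of all tested genes. Hsph1, which resets Hsp70, stood at 101, 98.2 and 55.2 CPM in c-Myc livers, against 24, 20.8 and 21.6 CPM in no dox livers (log2 fold change 1.94 with SE 0.26, edgeR adjusted p = 0.00113). Hsp90aa1, the inducible Hsp90, stood at 186, 237 and 139 CPM in c-Myc livers, against 72.1, 74.1 and 74.7 CPM in no dox livers (log2 fold change 1.35 with SE 0.20, edgeR adjusted p = 0.00189). Its partner Stip1 stood at 96.3, 109 and 84 CPM in c-Myc livers, against 57.1, 50.5 and 45.5 CPM in no dox livers (log2 fold change 0.92 with SE 0.14, edgeR adjusted p = 0.00195). Hspa1b, the classical heat-inducible Hsp70 gene, fell to 2.72, 1.98 and 2.66 CPM in c-Myc livers, against 7.28, 5.63 and 7.4 CPM in no dox livers (log2 fold change -1.46 with SE 0.21, edgeR adjusted p = 0.00136), though its near-identical copy Hspa1a makes its counts uncertain. The 9 were 5 without c-Myc replicate 1 or 2, 3 without no dox replicate 2 and 4 without no dox replicate 3, and the 2 lower were 1 without c-Myc replicate 1, 2 or 3, no dox replicate 1 or 3, or Mycl replicate 2 or 3.

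In the ATF4 and endoplasmic reticulum stress list 4 of 30 were higher and 2 lower, shares near the 11.8% and 8.88% of all tested genes. Asns, which makes asparagine, stood at 6.9, 21.7 and 9.38 CPM in c-Myc livers, against 1.7, 1.39 and 1.59 CPM in no dox livers (log2 fold change 3.02 with SE 0.48, edgeR adjusted p = 0.00252). Creld2 and Manf, secreted or retained helpers of the reticulum, stood at 116, 62.1 and 57 CPM and 134, 106 and 95.3 CPM in c-Myc livers, against 23.3, 17.1 and 30.9 CPM and 54.5, 53.4 and 55.7 CPM in no dox livers, with log2 fold changes of 1.72 and 1.03 (edgeR adjusted p = 0.00573 and 0.00208). Trib3, a pseudokinase and ATF4 target, stood at 6.46, 5.8 and 8.45 CPM in c-Myc livers, against 12.2, 18.7 and 12.7 CPM in no dox livers (log2 fold change -1.08 with SE 0.22, edgeR adjusted p = 0.00764). Atf4, its target Ddit3 and the reticulum chaperone Hspa5 did not pass, with log2 fold changes of 0.08, 0.22 and 0.99. The 4 higher were 7 without Mycl replicate 1, and of the 2 lower, 1 passed without c-Myc replicate 2 or no dox replicate 1, 2 or 3.

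Several of the largest falls among genes of middle to high level were in enzymes and carriers of the mature hepatocyte. Bhmt (chromosome 13, 93616675 to 93637961, GRCm38), which remethylates homocysteine with betaine, stood at 135, 94.7 and 257 CPM in c-Myc livers, against 965, 1237 and 1024 CPM in no dox livers (log2 fold change -2.73 with SE 0.36, edgeR adjusted p = 0.00101). Slc22a7, an organic anion transporter, stood at 18.1, 10.7 and 18.6 CPM in c-Myc livers, against 129.8, 86.7 and 133 CPM in no dox livers (log2 fold change -2.88 with SE 0.41, edgeR adjusted p = 0.00136). Aox3, an aldehyde oxidase, stood at 487, 289 and 639 CPM in c-Myc livers, against 2295, 2577 and 2256 CPM in no dox livers (log2 fold change -2.33 with SE 0.32, edgeR adjusted p = 0.0012). Selenbp2, a selenium-binding protein, stood at 155, 162 and 220.2 CPM in c-Myc livers, against 1039, 999 and 995 CPM in no dox livers (log2 fold change -2.50 with SE 0.32, edgeR adjusted p = 0.000952). In these 4 genes every no dox liver was more than 3-fold above every c-Myc liver. Cyp2c70, which makes the muricholic acids of mouse bile, fell to 409.6, 366 and 678 CPM in c-Myc livers, against 1809, 1621 and 1774 CPM in no dox livers (log2 fold change -1.84 with SE 0.29, edgeR adjusted p = 0.0026). Ugt2b38, a conjugating enzyme, stood at 2.66, 1.41 and 4.12 CPM in c-Myc livers, against 55.4, 47.4 and 58.2 CPM in no dox livers (log2 fold change -4.31 with SE 0.57, edgeR adjusted p = 0.000985). Cyp2c40 stood at 13.7, 5.12 and 15.3 CPM in c-Myc livers, against 216, 90.7 and 127 CPM in no dox livers (log2 fold change -3.67 with SE 0.65, edgeR adjusted p = 0.00431); both belong to families whose members share reads. Tsc22d1, Mme and Adgrf1 were also among the largest falls, with log2 fold changes of -2.32, -1.99 and -2.36.

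Several genes of amino acid breakdown were lower, some of them at steps of one route. Of 52 genes of the urea cycle and amino acid breakdown, 19 were lower and none higher, with a median of -0.56. The enzymes of tyrosine breakdown, Hpd, Hgd and Fah, had log2 fold changes of -1.22, -0.86 and -0.77. Kynu, which acts in tryptophan breakdown, stood at 107, 86.7 and 147 CPM in c-Myc livers, against 249, 209 and 219.7 CPM in no dox livers (log2 fold change -0.99 with SE 0.19, edgeR adjusted p = 0.00664). The urea cycle enzymes Otc and Ass1 had log2 fold changes of -0.82 and -0.87, and Cps1, the first step, -0.91 (edgeR adjusted p = 0.123). The 19 were 4 and 5 without c-Myc replicates 1 and 2, 5, 3 and 5 without no dox replicates 1, 2 and 3, and 5 when scaled by library totals. Hpd did not pass without c-Myc replicate 1 or no dox replicate 2. Hgd, Fah and Otc did not pass without c-Myc replicate 1 or 2 or no dox replicate 1, 2 or 3. Ass1 did not pass without c-Myc replicate 1 or 2, no dox replicate 1, 2 or 3 or Mycl replicate 2 or 3.

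Some plasma proteins fell as well. F11, a clotting factor, stood at 48.9, 33.5 and 72.6 CPM in c-Myc livers, against 127, 151 and 135 CPM in no dox livers (log2 fold change -1.41 with SE 0.27, edgeR adjusted p = 0.00566). C8b, a subunit of the complement pore, stood at 357, 254 and 406 CPM in c-Myc livers, against 807, 747 and 771 CPM in no dox livers (log2 fold change -1.19 with SE 0.20, edgeR adjusted p = 0.00334). Igf1, the growth factor that the liver supplies to the blood, stood at 749, 524 and 777 CPM in c-Myc livers, against 1281, 1494 and 1346 CPM in no dox livers (log2 fold change -1.01 with SE 0.21, edgeR adjusted p = 0.00917). In these 3 genes the groups did not overlap, as in 28.1% of all tested genes with c-Myc livers lower. Of 42 coagulation and complement genes 7 were lower and 1 higher, and of 34 apolipoproteins and plasma carriers 6 were lower and none higher. Of all tested genes 8.88% were lower and 11.8% higher. The 7 were 3 and 2 without c-Myc replicates 1 and 2, 2 without no dox replicate 1, 2 or 3 and 23 without Mycl replicate 1. The 1 higher, Mbl2, did not pass without c-Myc replicate 1 or 2 or no dox replicate 1, 2 or 3. The 6 were 3 without c-Myc replicate 2 or no dox replicate 1, 2 or 3 and 13 without Mycl replicate 1. Igf1 did not pass without no dox replicate 2.

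Fat burning genes were lower over much of the list. Of 34 members, 20 fell and none rose, against 8.88% of all tested genes lower, with a median of -0.61. Ppara, the nuclear receptor that drives this programme, stood at 127, 89 and 112 CPM in c-Myc livers, against 238, 250.2 and 252 CPM in no dox livers (log2 fold change -1.17 with SE 0.18, edgeR adjusted p = 0.00206). Ehhadh, an enzyme of peroxisomal oxidation, stood at 164, 132 and 214 CPM in c-Myc livers, against 496, 481 and 461 CPM in no dox livers (log2 fold change -1.50 with SE 0.21, edgeR adjusted p = 0.00126). Acaa1b, a peroxisomal thiolase, stood at 158, 189 and 278 CPM in c-Myc livers, against 588, 597 and 553 CPM in no dox livers (log2 fold change -1.47 with SE 0.24, edgeR adjusted p = 0.00263). Cpt1a, the entry step into mitochondria, did not pass, with a log2 fold change of -0.55 (edgeR adjusted p = 0.181). The 20 were 10 and 5 without c-Myc replicates 1 and 2, and 5, 6 and 7 without no dox replicates 1, 2 and 3. Scaled by library totals, 7 of the list were lower. Scd1, the desaturase that makes oleate, stood at 833, 1331 and 2612 CPM in c-Myc livers, against 8019, 11163 and 5843 CPM in no dox livers (log2 fold change -2.39 with SE 0.51, edgeR adjusted p = 0.00962), and did not pass without c-Myc replicate 2.

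In glucose use, calls went in both directions. Pkm, the pyruvate kinase of growing cells, rose to 42.4, 74.3 and 50.3 CPM in c-Myc livers, against 18.9, 19.4 and 19.8 CPM in no dox livers (log2 fold change 1.52 with SE 0.20, edgeR adjusted p = 0.00102). Pklr, the pyruvate kinase of hepatocytes, had a log2 fold change of -1.08 (edgeR adjusted p = 0.0462) and did not pass without c-Myc replicate 1, 2 or 3 or no dox replicate 1, 2 or 3. Slc16a3, an exporter of lactate, stood at 2.23, 6.58 and 2.73 CPM in c-Myc livers, against 0.383, 0.127 and 0.239 CPM in no dox livers (log2 fold change 3.88 with SE 0.58, edgeR adjusted p = 0.00189). Aldoc, an aldolase, fell to 6.19, 4.18 and 6.52 CPM in c-Myc livers, against 14.3, 14.4 and 11.2 CPM in no dox livers (log2 fold change -1.25 with SE 0.24, edgeR adjusted p = 0.00586). Aldoa, the transporter Slc2a2 and the dehydrogenase Ldha did not pass, with log2 fold changes of 0.44, -0.94 and 0.14. Over 29 members 7 were higher and 3 lower, beside 11.8% and 8.88% of all tested genes, and the share lower lies near the latter. The 7 were 4 and 3 without c-Myc replicates 1 and 2, and 2, 2 and 4 without no dox replicates 1, 2 and 3. The 3 were 1 without each of these 5 livers, and 5 were lower without Mycl replicate 1.

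Transcription factors of hepatocyte identity were lower in part. Of 45 factors and nuclear receptors, 10 were lower and none higher, with a median of -0.25. Besides Ppara these included Cebpa, a factor of mature hepatocytes, at 273, 197 and 309 CPM in c-Myc livers, against 445, 471 and 426 CPM in no dox livers (log2 fold change -0.78 with SE 0.19, edgeR adjusted p = 0.0173), which did not pass without c-Myc replicate 1 or 2 or no dox replicate 1, 2 or 3. Nr1h4, the bile acid receptor, stood at 73.3, 63 and 78.6 CPM in c-Myc livers, against 119, 112 and 117 CPM in no dox livers (log2 fold change -0.70 with SE 0.14, edgeR adjusted p = 0.00812). The core factors Hnf4a and Foxa2 did not pass, with log2 fold changes of -0.28 and 0.61. The 10 were 4 and 3 without c-Myc replicates 1 and 2, and 2 without no dox replicate 1, 2 or 3; with library totals 1 was lower and 5 were higher. The hepatocyte markers that the list of cell types holds, among them Alb and Asgr1, gave 0 calls of 14 in edgeR, with all 14 log2 fold changes below 0, a median of -0.57 and 6 at an unadjusted p under 0.05. Their ranges did not overlap, with c-Myc livers lower, in 11 of 14, against 28.1% of all tested genes, and DESeq2 called 5 lower.

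Position along the liver lobule is marked by genes of the hepatocytes near the central vein and near the portal vein. Of 25 pericentral genes, 13 fell and none rose, with a median of -0.88. Tbx3, a Wnt-dependent factor of the central zone, stood at 32.7, 22 and 23.1 CPM in c-Myc livers, against 92.5, 64.1 and 81.9 CPM in no dox livers (log2 fold change -1.62 with SE 0.23, edgeR adjusted p = 0.00148). Axin2, a direct Wnt target, stood at 7.71, 4.91 and 5.26 CPM in c-Myc livers, against 15.7, 11.8 and 14.7 CPM in no dox livers (log2 fold change -1.24 with SE 0.23, edgeR adjusted p = 0.00517). Rgn, a calcium-binding enzyme, stood at 360.2, 272 and 522 CPM in c-Myc livers, against 1068, 1083 and 1021 CPM in no dox livers (log2 fold change -1.46 with SE 0.24, edgeR adjusted p = 0.00326). Of 25 periportal genes, 7 were lower and 1 higher, with a median of -0.68. Fbp1, an enzyme of glucose synthesis, stood at 429, 304 and 547 CPM in c-Myc livers, against 878, 912 and 839 CPM in no dox livers (log2 fold change -1.04 with SE 0.22, edgeR adjusted p = 0.00917), and did not pass without no dox replicate 2. The pericentral count was 7 without c-Myc replicate 2 and 8, 8 and 6 without no dox replicates 1, 2 and 3. The 7 lower periportal genes were 2 without c-Myc replicate 1 or 2, 12 without c-Myc replicate 3, and 2, 0 and 2 without no dox replicates 1, 2 and 3; the 1 higher, Hsd17b13, did not pass without c-Myc replicate 1 or 2 or no dox replicate 1, 2 or 3.

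Part of the circadian list was lower, and the time of day at harvest is not given in the sources used here. Nr1d1, a repressor of the clock, stood at 30.7, 26.2 and 57.5 CPM in c-Myc livers, against 121, 148 and 93.7 CPM in no dox livers (log2 fold change -1.67 with SE 0.29, edgeR adjusted p = 0.00374). Dbp, a clock output factor, stood at 3.37, 3.97 and 10.6 CPM in c-Myc livers, against 29.7, 49.7 and 23.9 CPM in no dox livers (log2 fold change -2.54 with SE 0.44, edgeR adjusted p = 0.00386). Cry2, a core repressor, stood at 20.7, 16.5 and 27.1 CPM in c-Myc livers, against 38.1, 45.4 and 44.3 CPM in no dox livers (log2 fold change -0.99 with SE 0.18, edgeR adjusted p = 0.00487), while its paralog Cry1 was higher at 0.93 on the log2 scale (edgeR adjusted p = 0.0126) and did not pass without no dox replicate 2. Of the core activators, Arntl and Clock did not pass, with log2 fold changes of 0.52 and -0.22, nor did the repressor Per2, with -0.17. Over 19 members 7 were lower and 2 higher, beside 8.88% and 11.8% of all tested genes, and the share higher lies near the latter. Without c-Myc replicate 2 or no dox replicate 2, 4 were lower. The 2 higher were 1 without c-Myc replicate 1, 2 or 3 or no dox replicate 1 and 0 without no dox replicate 2.

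Interferon-responsive genes were lower over most of the list. Of 32 tested, 23 were lower and 1, the chemokine Cxcl10, higher, with a median of -0.77. Ifih1 (chromosome 2, 62595798 to 62646255, GRCm38), a sensor of double-stranded RNA, stood at 42.4, 36 and 45.1 CPM in c-Myc livers, against 76.6, 91.5 and 82.4 CPM in no dox livers (log2 fold change -1.02 with SE 0.15, edgeR adjusted p = 0.00192). Rsad2, an antiviral enzyme, stood at 10.9, 10.2 and 10.5 CPM in c-Myc livers, against 19, 19.8 and 18.4 CPM in no dox livers (log2 fold change -0.86 with SE 0.13, edgeR adjusted p = 0.00225), with very little spread within either group. Xaf1, a protein that promotes cell death, stood at 4.89, 4.8 and 5.26 CPM in c-Myc livers, against 9.85, 12.3 and 10.4 CPM in no dox livers (log2 fold change -1.12 with SE 0.18, edgeR adjusted p = 0.00241). Antigen presentation genes gave 8 lower and 0 higher of 21, among them the class I gene H2-Q4 at 16.7, 12.7 and 14 CPM in c-Myc livers, against 41.5, 23.4 and 48 CPM in no dox livers (log2 fold change -1.37 with SE 0.24, edgeR adjusted p = 0.00434). The 23 were 12 without c-Myc replicate 2, and 15 and 11 without no dox replicates 1 and 2; the 8 were 1, 5, 4 and 1 without c-Myc replicate 2 and no dox replicates 1, 2 and 3. Scaled by library totals, 10 and 3 were lower.

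Lcn2, a secreted carrier of iron chelators, stood at 251, 58.3 and 75.2 CPM in c-Myc livers, against 4.16, 7.34 and 8.83 CPM in no dox livers (log2 fold change 4.25 with SE 0.72, edgeR adjusted p = 0.00351). Saa2, an acute phase apolipoprotein that shares reads with Saa1, stood at 1359, 194 and 225 CPM in c-Myc livers, against 14.8, 15.2 and 39.8 CPM in no dox livers (log2 fold change 4.68 with SE 0.99, edgeR adjusted p = 0.00961). In both genes the groups did not overlap, and replicate 1 was the highest c-Myc liver, not replicate 2. Serpina3c (chromosome 12, 104146382 to 104153870, GRCm38), a protease inhibitor in a family whose members share reads, stood at 323, 117 and 14 CPM in c-Myc livers, against 0.274, 0.316 and 0.875 CPM in no dox livers (log2 fold change 8.35 with SE 1.15, edgeR adjusted p = 0.00124), a spread of more than 20-fold among the c-Myc livers. Mycl livers held 0.0904, 0.217 and 0.0609 CPM of it, so its level was near 0 in all 6 livers of the Mycl line. It passed the count filter only through the c-Myc livers, so its call rests on them and its fold is loosely set. Most of the acute phase list did not pass, including Hp, Crp and Hamp with log2 fold changes of 0.42, -0.56 and -0.63. Of 31 members 6 were higher and 1 lower, beside 11.8% and 8.88% of all tested genes. Without Mycl replicate 1 or 3, 10 were higher. The number lower was 0 without c-Myc replicate 1 or 2 or no dox replicate 1, 2 or 3, 3 without c-Myc replicate 3 and 5 without Mycl replicate 1.

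Of 13 tested neutrophil and monocyte markers, 4 rose and 1 was lower, beside 11.8% and 8.88% of all tested genes. The share lower lies near the latter. Ccl2, the chemokine that draws monocytes, had 54, 68 and 35 counts in c-Myc livers, against 3, 4 and 2 counts in no dox livers (log2 fold change 3.88 with SE 0.33, edgeR adjusted p = 0.000311). Ccr2, its receptor, stood at 7.44, 9.19 and 6.12 CPM in c-Myc livers, against 1.04, 1.26 and 2.07 CPM in no dox livers (log2 fold change 2.41 with SE 0.26, edgeR adjusted p = 0.000548). Itgam, an integrin of myeloid cells, stood at 8.26, 10.5 and 5.72 CPM in c-Myc livers, against 2.24, 2.09 and 2.39 CPM in no dox livers (log2 fold change 1.87 with SE 0.27, edgeR adjusted p = 0.0017). Chil3, a secreted lectin of macrophages and neutrophils, stood at 4.67, 7.68 and 5.92 CPM in c-Myc livers, against 0.328, 0.506 and 0.159 CPM in no dox livers (log2 fold change 4.13 with SE 0.36, edgeR adjusted p = 0.000311). The neutrophil genes S100a8 and S100a9 did not pass, with log2 fold changes of 0.68 and 0.78, and Ly6g, Mpo and Elane did not reach the count filter. The 16 markers in the table, those below the filter included, summed to 94.6 to 129 CPM in c-Myc livers and 60.7 to 76.2 CPM in no dox livers. Most of that sum was Lyz2, a lysozyme of myeloid cells, which stood at 57.9, 80.6 and 85.2 CPM in c-Myc livers, against 55.7, 45 and 58.2 CPM in no dox livers, and did not pass (log2 fold change 0.49 with SE 0.37, edgeR adjusted p = 0.374). Il1b was the 1 marker lower, and did not pass without c-Myc replicate 1 or 2, no dox replicate 1, 2 or 3 or Mycl replicate 2. Of 16 Kupffer cell markers, 3 were lower and none higher, beside 8.88% and 11.8% of all tested genes. Their sums were 558 to 768 CPM in c-Myc livers and 907 to 1024 CPM in no dox livers. Of these markers 1 was lower without c-Myc replicate 1 or 2 or no dox replicate 1, 2 or 3, and 5 without c-Myc replicate 3 or Mycl replicate 1.

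Of 15 stellate cell markers 4 were higher and 1 lower, beside 11.8% and 8.88% of all tested genes. Tnc, the matrix protein tenascin C, which is not in that list, stood at 43.1, 94.3 and 42.2 CPM in c-Myc livers, against 3.01, 5.38 and 4.06 CPM in no dox livers (log2 fold change 3.86 with SE 0.50, edgeR adjusted p = 0.000981). Col1a1, the main chain of type I collagen, stood at 294, 793 and 284 CPM in c-Myc livers, against 45.8, 61.5 and 84.8 CPM in no dox livers (log2 fold change 2.84 with SE 0.52, edgeR adjusted p = 0.0049). Acta2, the actin of contractile cells, stood at 9.56, 40.9 and 17 CPM in c-Myc livers, against 2.79, 3.54 and 3.26 CPM in no dox livers (log2 fold change 2.82 with SE 0.47, edgeR adjusted p = 0.0033). All 3 were highest in c-Myc replicate 2. The other 2 stellate markers that were higher were Col1a2 and Des, and the 1 lower was Colec11. Lrat, Reln and Pdgfrb, markers of quiescent stellate cells or pericytes, did not pass, with log2 fold changes of 0.04, -0.65 and 0.48, nor did the matrix genes Dcn and Col14a1, with -0.10 and -0.48. Col3a1, a chain of type III collagen, stood at 320.4, 685 and 331 CPM in c-Myc livers, against 184, 230.4 and 253 CPM in no dox livers, with no overlap, and did not pass (edgeR adjusted p = 0.0808). The 15 markers summed to 1335 to 2513 CPM in c-Myc livers and 977 to 1196 CPM in no dox livers. The 4 were 2 without c-Myc replicate 2 or no dox replicate 1 or 2. Colec11 did not pass without c-Myc replicate 1 or 2, no dox replicate 1, 2 or 3 or Mycl replicate 2 or 3, Col1a2 without c-Myc replicate 2 or no dox replicate 1 or 2, and Des without c-Myc replicate 2 or 3 or no dox replicate 1, 2 or 3.

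Red cell genes were lower. Of 8 tested erythroid markers 6 were lower and none higher. Slc4a1, the anion exchanger of the red cell membrane, had 6, 2 and 3 counts in c-Myc livers, against 29, 85 and 25 counts in no dox livers (log2 fold change -3.79 with SE 0.58, edgeR adjusted p = 0.00218). The globin gene Hba-a1, which shares reads with its copy, stood at 6.9, 3.29 and 5.06 CPM in c-Myc livers, against 21.1, 27.3 and 18.8 CPM in no dox livers (log2 fold change -2.14 with SE 0.39, edgeR adjusted p = 0.00498). The 13 markers summed to 52.6 to 106 CPM in c-Myc livers and 230 to 306 CPM in no dox livers. How far the amount of blood or of red cell precursors in the tissue moves these values was not tested. The 6 were 3 and 2 without c-Myc replicates 1 and 2, and 3, 2 and 2 without no dox replicates 1, 2 and 3. Of 11 markers of mesothelium, fat and muscle only 3, all mesothelial, were tested, of which 1 was higher and 2 lower. Upk3b had 7, 0 and 0 counts in c-Myc livers, against 50, 21 and 51 counts in no dox livers (edgeR adjusted p = 0.0102). Msln stood at 0.598, 0.104 and 0.0665 CPM in c-Myc livers, against 2.46, 0.822 and 2.78 CPM in no dox livers (log2 fold change -2.90 with SE 0.71, edgeR adjusted p = 0.0183). In Mycl livers Upk3b stood at 0.361, 0 and 0.0609 CPM and Msln at 0, 0.163 and 0.0609 CPM. Upk3b and Msln passed the count filter only through the no dox livers, so their calls rest on those livers. Wt1, the 1 higher, stood at 1.9, 5.17 and 1.4 CPM in c-Myc livers, against 0.274, 0.569 and 0.955 CPM in no dox livers (log2 fold change 2.30 with SE 0.60, edgeR adjusted p = 0.0244). Msln did not pass without c-Myc replicate 2 or no dox replicate 1 or 3. Wt1 did not pass without c-Myc replicate 2 or no dox replicate 1 or 2.

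The c-Myc livers were last set against the Mycl livers, the group most like them, which also had doxycycline and a MYC family transgene. Both comparisons use the same c-Myc livers, so they are given side by side. At an adjusted p under 0.05, 524 genes were higher and 333 lower in c-Myc than in Mycl livers, which is 4.14% and 2.63% of tested genes, or 6.77% in either direction. The reporter stood at 221, 282 and 76.4 CPM in c-Myc livers, against 52.3, 146 and 269.8 CPM in Mycl livers, and did not pass (log2 fold change 0.31 with SE 0.58, edgeR adjusted p = 0.764). Of the ribosome assembly factors 24 of 45 were higher, of the nuclear pore genes 12 of 45, of nucleotide synthesis 14 of 28, of origin licensing and DNA synthesis 21 of 38 and of recombination and cross-link repair 16 of 33, with none lower in these 5 lists. Of mitotic genes 10 of 46 were higher. These counts rest on single livers: without c-Myc replicate 1 only 40 genes were higher and 27 lower, without replicate 2, 47 and 32, and without replicate 3, 979 and 572. Leaving out Mycl replicate 2 gave 262 and 261, and leaving out Mycl replicate 3 gave 183 and 190. Without c-Myc replicate 1 or 2, no ribosome assembly factor or nuclear pore gene was higher than in Mycl livers, and 1 or 2 members of each of the other 4 lists were. Without Mycl replicate 3 the numbers higher were 8 for ribosome assembly, 3 for the nuclear pore, 5 for nucleotide synthesis, 6 for DNA synthesis, 7 for repair and 5 for mitosis.

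Some named genes passed against Mycl livers too. Uhrf1 stood at 57.7, 93.7 and 31.9 CPM in c-Myc livers, against 6.69, 15.8 and 11.3 CPM in Mycl livers (log2 fold change 2.43 with SE 0.42, edgeR adjusted p = 0.017). Srm stood at 83.5, 115 and 44.3 CPM in c-Myc livers, against 19.3, 23.3 and 25.5 CPM in Mycl livers (log2 fold change 1.83 with SE 0.30, edgeR adjusted p = 0.0153). Ruvbl2 stood at 26.5, 37.8 and 23.8 CPM in c-Myc livers, against 10.9, 12.1 and 11.4 CPM in Mycl livers (log2 fold change 1.35 with SE 0.18, edgeR adjusted p = 0.00795). Chek1 stood at 13.1, 17 and 8.25 CPM in c-Myc livers, against 3.61, 3.63 and 3.23 CPM in Mycl livers (log2 fold change 1.87 with SE 0.28, edgeR adjusted p = 0.0114). These genes were higher in every c-Myc liver than in every Mycl liver, as were 13.7% of all tested genes. Bhmt, among the falls, stood at 135, 94.7 and 257 CPM in c-Myc livers, against 754, 792 and 1177 CPM in Mycl livers (log2 fold change -2.48 with SE 0.36, edgeR adjusted p = 0.0107). In that comparison Uhrf1 and Srm did not pass without c-Myc replicate 1 or 2, nor Bhmt without c-Myc replicate 1, while Ruvbl2 and Chek1 passed with each c-Myc and Mycl liver left out in turn. Other genes that rose or fell against no dox did not pass here. Cdkn1a stood at 31.4, 67.3 and 26.1 CPM in c-Myc livers, against 30.2, 36.7 and 55.1 CPM in Mycl livers (log2 fold change 0.03 with SE 0.34, edgeR adjusted p = 0.959). Ccr2 stood at 7.44, 9.19 and 6.12 CPM in c-Myc livers, against 7.41, 7.48 and 7.62 CPM in Mycl livers (log2 fold change 0.02 with SE 0.23, edgeR adjusted p = 0.966). Tbx3 stood at 32.7, 22 and 23.1 CPM in c-Myc livers, against 25.4, 34.4 and 20.2 CPM in Mycl livers (log2 fold change -0.04 with SE 0.23, edgeR adjusted p = 0.924). For these 3 the ranges of the induced groups overlapped, and a p that misses the threshold does not show equal levels. Among lists, the fatty acid oxidation median was -0.25 and the pericentral median -0.12 against Mycl livers, with 0 of 34 and 2 of 25 lower, and the urea cycle and amino acid breakdown median -0.60, with 8 of 52 lower. These 8 were 0, 1 and 30 without c-Myc replicates 1, 2 and 3, and 2 and 1 without Mycl replicates 2 and 3. The 2 pericentral genes were 0 without c-Myc replicate 1 or 2 and 1 without Mycl replicate 2.

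**Figure D5:**
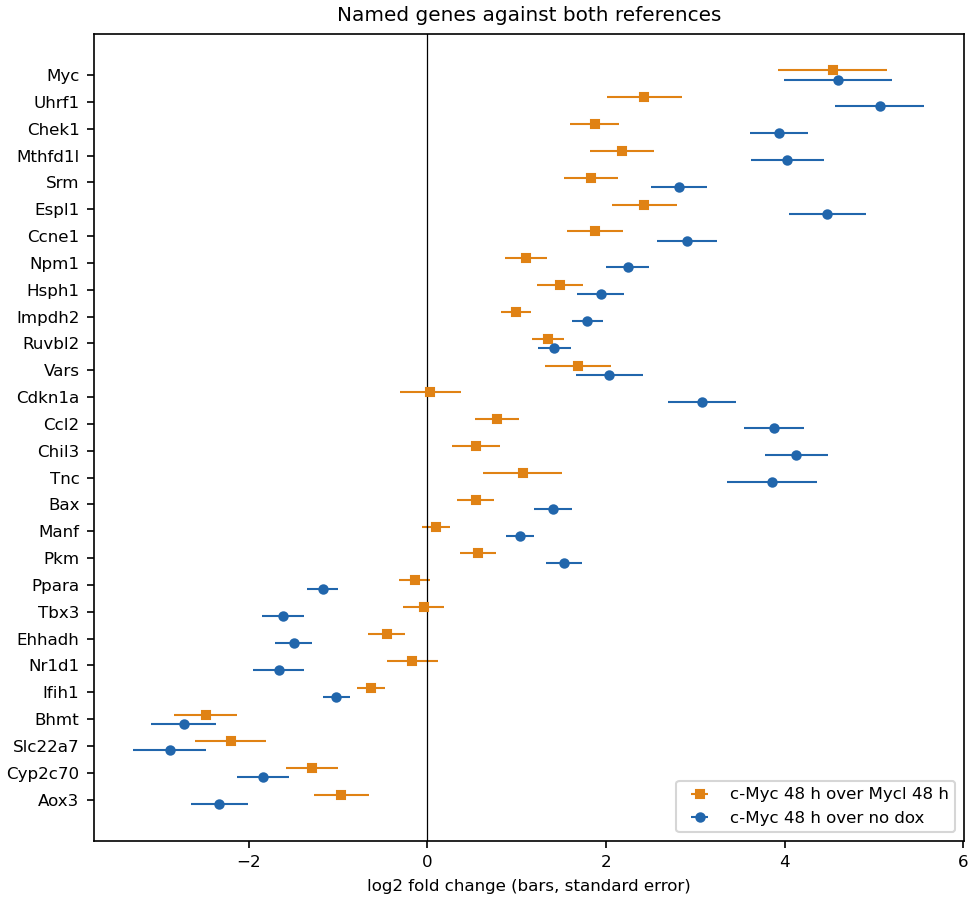
Log2 fold changes of named genes with standard errors, c-Myc 48 h over Mycl 48 h (orange squares) and c-Myc 48 h over no dox (blue circles). Genes such as Ruvbl2, Bhmt and Slc22a7 have similar values against both, while Cdkn1a, Tbx3, Ppara and Nr1d1 lie near 0 against Mycl.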

How the data were processed

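Total RNA of 9 mouse livers was sequenced, and the authors deposited whole-number counts of reads per gene. Per the submitters' processing notes, cutadapt 3.0, STAR 2.7.8a, HTSeq 0.11.2, DESeq2 1.30.0 and build mm10 were used; the sources used here do not give the annotation release or the strand setting of the counting. The library kit marks strand per the labels. Reads of overlapping, antisense and near-identical genes may therefore be shared. Library totals ran from 11013412 to 20079232 counts, and counting error is small beside the spread between livers except for genes of few counts.

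Counts were filtered with filterByExpr at a minimum count of 10, scaled by TMM and tested in edgeR 4.0.16 with its quasi-likelihood test over all 9 libraries, with no covariate and 6 residual degrees of freedom, in R 4.3.3. P-values were adjusted by Benjamini and Hochberg over 12651 genes, with a threshold of 0.05. SE is the log2 fold change divided by the root of the F value. The test was also run on simulated counts, with far fewer changed genes than passed here and as many raised as lowered. That check does not speak for the scaling of these data. Gene coordinates are those of GENCODE M21 on GRCm38, which is mm10, and promoters those of RefSeq. DESeq2 1.42.0, limma 3.58.1 with voom, other scalings, filters and samples were alternatives. Named were Myc, Mycl, Mycn, Max, the reporter, Uhrf1 and Npm1, up to 15 genes of the largest fold change per direction among those that passed, stood above the median level and did not overlap, and up to 4 members of each list by adjusted p; other genes named in the text were chosen after their values were seen. The comparison, its members and the gene lists were chosen with earlier results of these data known.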

Additional observations from a re-analysis of the deposited data

How the results depend on the processing

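Against no dox, 1490 genes were higher and 1124 lower. They were 3181 and 337 with library totals and 596 and 142 with a minimum fold of 1.5. With only the 6 libraries compared they were 2325 and 1784. There the filter, the scaling and the shared spread no longer include the Mycl livers. Other scalings, filters and tests stayed within 1.5 times, for example 1598 and 914 with DESeq2's size factors and 1855 and 1279 with DESeq2. The share of calls that were rises was 57.0%, against 90.4% with library totals, 80.8% with the minimum fold and 70.3% to 74.9% without c-Myc replicate 1 or 2 or any 1 of the no dox livers. With 1 library left out, the counts ranged over 897 to 2402 higher and 300 to 1844 lower; leaving out Mycl livers was added after seeing the data. Against Mycl, 524 and 333 genes passed; DESeq2 gave 998 and 745, library totals 1456 and 223, and leaving out a library 40 to 979 higher and 27 to 572 lower. Where a group keeps 2 livers, the spread is shared with the other groups.

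Of 3294 values of the 174 genes with values in the text, 3072 kept direction and call, 140 lost the call, 73 gained it and 9 changed sign, none of them called. With library totals these were Clock at 0.134, Dcn at 0.256, Dnmt3a at 0.029, Hnf4a at 0.072, Mcl1 at 0.273 and Per2 at 0.183. With 1 library left out, Atf4 ranged over -0.037 to 0.262, Lrat over -0.039 to 0.187 and Mcl1 over -0.151 to 0.033. Of the 113 genes that passed, 32 did not under the minimum fold, 20 without some library, 11 with library totals, 2 with limma-voom and 0 with DESeq2. The cause of these losses was not tested.

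Livers of c-Myc and no dox with the same replicate number had correlations of deviations of -0.004, 0.012 and 0.001. The deviations are from means of 3 livers, so values near 0 cannot decide whether these livers were paired. For Mycl and no dox livers these values were 0.314, 0.0866 and 0.0353. For Mycl and c-Myc livers they were -0.0486, 0.0631 and -0.187. With the replicate number as a block, 1418 genes were higher and 943 lower against no dox and 411 and 278 against Mycl.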

Other observations

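Bcat1, Dctd, Serpina1e and Alb were chosen after their values were seen. Bcat1, which moves nitrogen from branched-chain amino acids and is low in hepatocytes, had 41, 59 and 35 counts in c-Myc livers and 0, 0 and 0 counts in no dox livers. Dctd, which feeds deoxynucleotide synthesis, had 140, 278 and 83 counts in c-Myc livers and 1, 1 and 0 counts in no dox livers. Both were absent or nearly so in every no dox liver.

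Serpina1e, a mouse form of alpha-1 antitrypsin whose family members share reads, stood at 246, 2812 and 10568 CPM in c-Myc livers and 12556, 12448 and 12079 CPM in no dox livers (log2 fold change -1.44 with SE 0.88, edgeR adjusted p = 0.276). The no dox livers lay close together and c-Myc replicate 1 stood far below the other c-Myc livers. Cyp2a4, a steroid hydroxylase with a near-identical paralog that is higher in female mice, stood at 53.2, 8.2 and 117 CPM in c-Myc livers and 1.26, 4.3 and 2.78 CPM in no dox livers (log2 fold change 4.43 with SE 0.88, edgeR adjusted p = 0.00749), lowest of the c-Myc livers in replicate 2. Alb, the most abundant transcript, stood at 58277, 44993 and 76152 CPM in c-Myc livers and 90334, 102990.0 and 89689.9 CPM in no dox livers, with no overlap, and did not pass (log2 fold change -0.66 with SE 0.42, edgeR adjusted p = 0.301).

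The lists not yet described gave the following counts, beside 11.8% higher and 8.88% lower of all tested genes. Of 43 translation factors 14 were higher and 0 lower, of 31 genes of mitochondrial import 4 and 0, of 21 NRF2 and glutathione genes 3 and 2, and of 36 cholesterol and fatty acid synthesis genes 3 and 3. Of 24 bile acid genes 0 were higher and 9 lower, of 43 xenobiotic genes 0 and 14, of 20 gluconeogenesis and glycogen genes 1 and 3, and of 22 male-biased liver genes 0 and 5. Of 13 female-biased liver genes 1 was higher and 0 lower. For the mitochondrial import list the share higher, and for the NRF2 and cholesterol lists the shares in both directions, lie near those of all tested genes. Of 18 immediate early genes 5 were higher and 2 lower. Several of these counts rest on single livers. Without c-Myc replicates 1 and 2, the translation factors higher were 6 and 5, the bile acid genes lower 5 and 3, and the xenobiotic genes lower 4 and 4. Without no dox replicates 1, 2 and 3 these were 8, 5 and 5 translation factors, 3, 5 and 3 bile acid genes, and 5, 4 and 4 xenobiotic genes. Without Mycl replicate 1, 27 translation factors and 14 genes of mitochondrial import were higher, and the import genes were 2 without c-Myc replicate 1 or 2 or any 1 of the no dox livers. Male-biased genes lower were 3, 1 and 9 without c-Myc replicates 1, 2 and 3, 2, 1 and 2 without no dox replicates 1, 2 and 3, and 11 without Mycl replicate 3. Immediate early genes higher were 3 and 2 without c-Myc replicates 1 and 2, and 1 without no dox replicate 1 or 2. The counts of NRF2, cholesterol, gluconeogenesis and endothelium genes ranged over 0 to 6 with 1 library left out. Of 16 fetal liver and ductal genes 1 was higher and 1 lower, of 8 cholangiocyte markers 1 and 0, of 7 lymphocyte markers 0 and 1, and of 4 sex chromosome genes 0 and 2. With 1 library left out these 4 lists and the female-biased list ranged over 0 to 3 higher and 0 to 2 lower. Pancreas markers gave 0 calls of 11 in edgeR, with 1 at an unadjusted p under 0.05 and 1 lower in DESeq2, and endothelium markers 0 higher and 1 lower of 18. Endothelium markers summed to 480 to 682 CPM in c-Myc livers and 718 to 892 CPM in no dox livers.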
